A study of Saccharomyces cerevisiae with 4 samples.

Results

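The outer layer of the yeast cell is built from a group of secreted proteins that either sit in the wall or cut and rejoin its polysaccharides, and the transcripts of 42 such genes were compared between the Saccharomyces cerevisiae strains NBRC1950 and X2180. The genes were taken by name as members of known wall families, by a rule that states no measured value but was drawn up with earlier results of these data known, and all 42 were found on the array, among 5449 S. cerevisiae genes read there. They comprise mannoproteins held by a glycosylphosphatidylinositol (GPI) anchor remnant, PIR proteins, the TIR, DAN and PAU mannoproteins of cells short of oxygen, proteins of mother and daughter cell separation, the SUN family, and the GAS, CRH and glucanase enzymes. NBRC1950 is a culture collection strain, represented by 2 arrays. X2180, also represented by 2 arrays, is a laboratory diploid of the S288C lineage, from which the reference genome was read. Neither label names an introduced allele, a treatment, a ploidy or a growth phase, and both strains were cultured with shaking in YPD, which is rich medium with glucose. The series as a whole concerns ergosterol content and tolerance of vanillin, an aromatic aldehyde that inhibits yeast, but no vanillin was named for these cultures. The duplicates are described as independent experiments.

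The yeast wall consists of a net of beta-1,3-glucan with some chitin and beta-1,6-glucan, covered by a coat of highly mannosylated proteins. Most coat proteins reach the surface with a GPI anchor, which is then cut so that the protein is joined to beta-1,6-glucan, whereas PIR proteins are joined directly to beta-1,3-glucan. As cells grow, GAS enzymes elongate glucan, CRH enzymes attach chitin to glucan, and glucanases open the net. After division, enzymes made mainly in the daughter cell dissolve the septum.

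Signals are probe set intensities scaled to give every array the same S. cerevisiae median, 973.6. Before scaling that median was 983 and 1171 on the NBRC1950 arrays and 894 and 964 on the X2180 arrays. Between 5261 and 5336 genes lay above background on each array, background being the 90th percentile of probe sets that name no S. cerevisiae gene. The log2 difference between the arrays of one strain had an SD of 0.20 over probe sets in either strain, against 0.84 to 0.85 between strains. The 17 ribosomal RNA probe sets all read lower in NBRC1950, with a mean log2 difference of -1.10. For the control transcript SRB4 the 3' end exceeded the 5' end, on the log2 scale, by 2.66 and 2.83 in NBRC1950 against 2.05 and 2.18 in X2180, and for ACT1 by 0.33 and 0.31 in NBRC1950 against 0.20 and 0.26 in X2180. The part of these features in the results below was not tested. In bulk RNA, fewer expressing cells and less RNA per cell cannot be told apart.

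With arrays scaled to the S. cerevisiae median, more of the 42 wall genes were lower than higher in NBRC1950. The call rule was a limma adjusted p under 0.05 in a fit over all genes, and by it 20 members (47.6%) were lower and 6 (14.3%) higher, while 16 were not called. Of all 5332 genes tested, 26.9% were called lower and 20.3% higher. Calls in either direction came to 26 members (61.9%), beside 47.2% of all tested genes. The arrays of the strains did not overlap for 35 members (83.3%), but that was also so for 75.7% of all genes. The median log2 difference, NBRC1950 minus X2180, was -0.24 over the members and -0.05 over all tested genes. Differences of at least 1 on the log2 scale were called for 7 members (16.7%), against 7.54% of all genes: HPF1, DSE4, PAU7 and SUN4 were lower, and PAU2, TIR3 and PAU5 were higher.

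**Figure D1:**
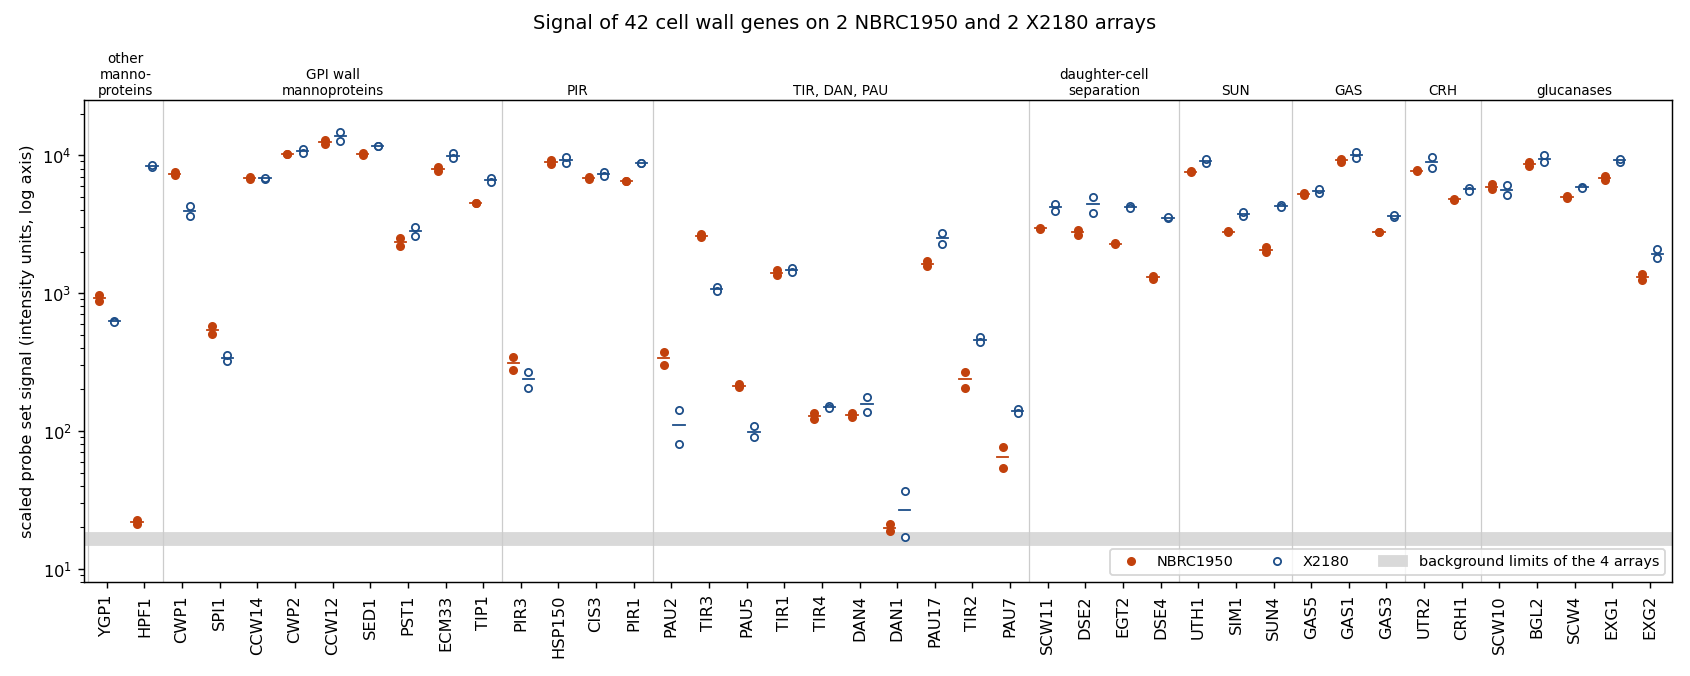
Scaled probe set signal of the 42 wall genes in intensity units on a log axis, with genes grouped by role and ordered within a role by their difference. Filled points are the 2 NBRC1950 arrays, open points the 2 X2180 arrays, short lines their means, and the grey band spans the background limits of the 4 arrays. HPF1 sits near 22 on both NBRC1950 arrays and above 8189 on both X2180 arrays, and most other genes differ far less.

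How many members counted as lower depended on how the arrays were scaled. With the all-probe-set median as the scale, hereafter called scaling to all probe sets, the median tested gene moved to 0.50 and the members' median to 0.31, with 23 members called higher and 6 lower. That scale rests on 10928 probe sets, of which 5216 are background probe sets that name no S. cerevisiae gene. A gene given below as positive under that scale can still lie below the median gene. Without further scaling the median gene stood at 0.16, and 7 members were called higher and 6 lower. Quantile normalization gave 6 higher and 16 lower. Relative to the median of all tested genes, the members' median was -0.19 under the first 3 scalings and -0.11 after quantile normalization. The first 3 differ only by a factor for each array, which moves both medians nearly alike, so their agreement is no test. Called in the same direction under all 4 scalings were 12 members: HPF1, DSE4, EGT2, SUN4, TIR2 and PAU7 were lower, and PAU2, TIR3, PAU5, CWP1, SPI1 and YGP1 were higher. The other 14 calls held with the S. cerevisiae median but not under every scaling. They are all in the lower direction, and 9 of them were under 0.5 in size. Scaling to all probe sets and no further scaling both moved genes upward, which worked against lower calls and for higher ones. Holding under all 4 scalings was therefore not an equal test of the directions.

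**Figure D2:**
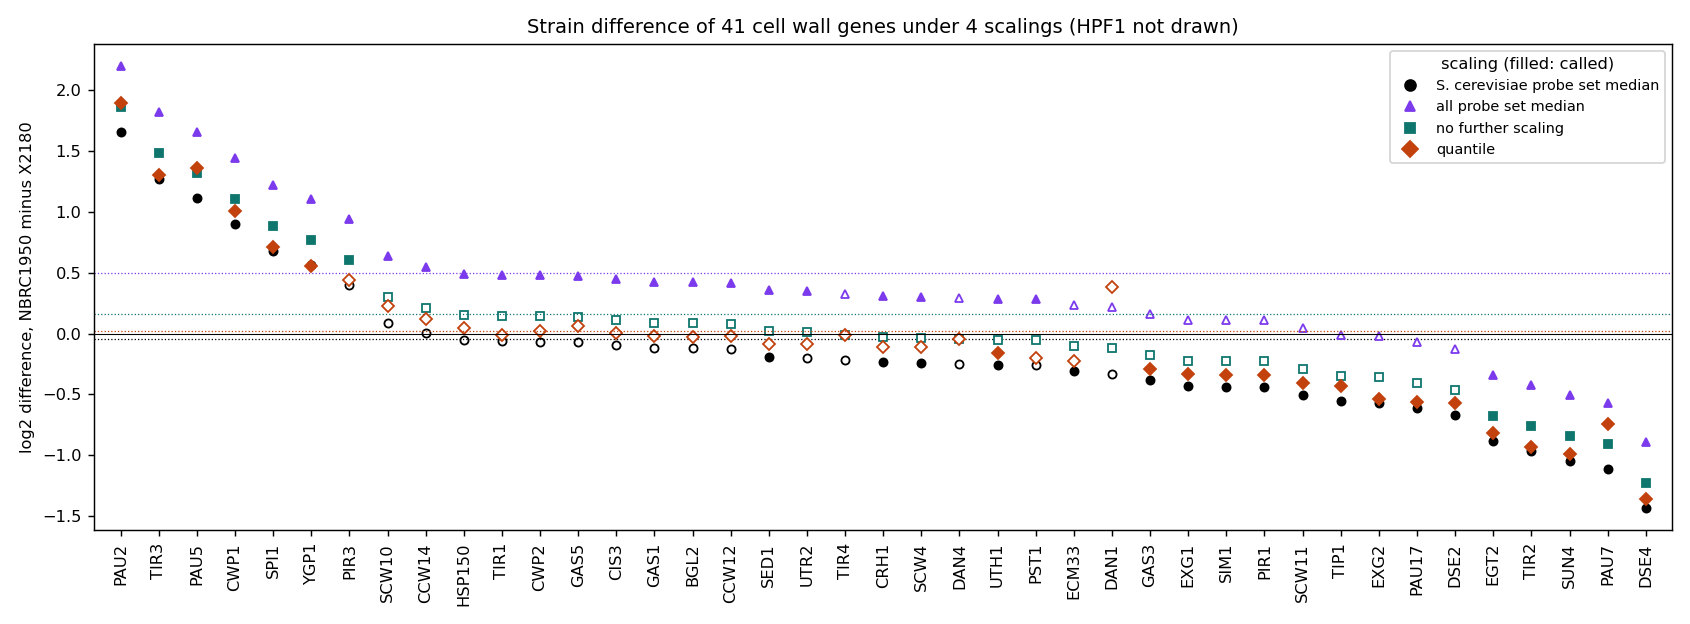
Log2 difference, NBRC1950 minus X2180, of 41 wall genes under 4 scalings of the arrays, with filled markers where the gene was called and dotted lines at the median of all tested genes for each scaling. HPF1, at -8.58, is not drawn. The genes from PAU2 to YGP1 at the left stay called higher and those from EGT2 to DSE4 at the right stay called lower under all 4 scalings.

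The size of the differences also went with signal. A mean signal of at least 4000, a limit chosen after the values were seen, was reached by 20 members, of which 9 were called lower, 1 higher and 10 not. HPF1 is one of the 9 and reached the limit through its X2180 arrays alone. Among all 756 genes as bright, 38.5% were called, and 2.51% were called with a size of at least 1. Below that limit 16 of 22 members (72.7%) were called, 11 lower and 5 higher, beside 48.6% of all genes in that range.

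**Figure D3:**
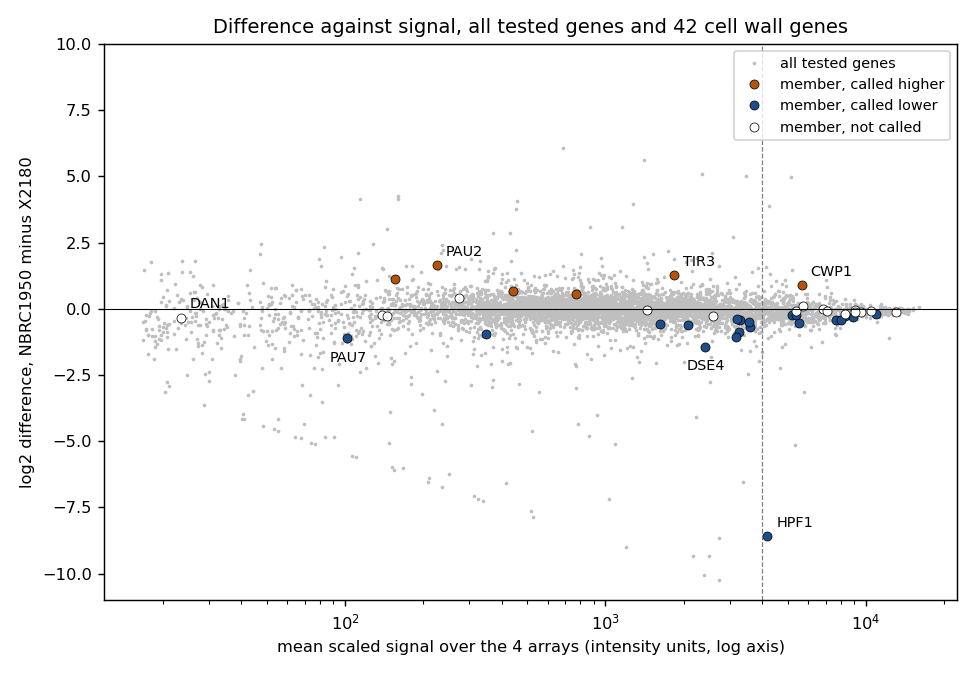
Log2 difference, NBRC1950 minus X2180, against the mean scaled signal over the 4 arrays on a log axis, for all 5332 tested genes (grey) and the 42 wall genes (circles, coloured where called). The dashed line marks a signal of 4000. HPF1 at -8.58 stands far below the other members, while the bright members to the right of the line otherwise lie close to 0, with CWP1 the single called higher one.

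HPF1 showed by far the largest difference of the group. It encodes a mannoprotein known from wine, where it lowers protein haze. Its signal was 22.5 and 21.2 on the NBRC1950 arrays, against 8189 and 8460 on the X2180 arrays. The NBRC1950 signals lay just above the background limits of 14.9 and 16.6 on those arrays. The log2 difference was -8.58 ± 0.09 (SE, n = 2 arrays per strain; limma adjusted p = 7.06e-09), and it ranged from -8.62 to -8.53 with 1 array left out. On these arrays, loss or sequence divergence of HPF1 in NBRC1950 and lack of transcription cannot be told apart.

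HPF1 lies near the left end of chromosome XV, the 15th protein-coding gene from that end in the R64 gene order of S288C, and several of its neighbours were also low in NBRC1950. They were examined after the value of HPF1 was seen. On the side of the chromosome end, YOL155W-A was not above background on either NBRC1950 array and at least 9.41-fold lower (limma adjusted p = 1.21e-05), the hexose transporter gene HXT11 at least 5.02-fold lower (adjusted p = 7.12e-05) and YOL159C-A at least 43.2-fold lower (adjusted p = 3.21e-07). These bounds set the mean log2 signal in X2180 against, on each NBRC1950 array, the higher of the background limit and the gene's own signal. The adjusted p do not test the bounds but the log2 differences fitted in limma, -5.05, -4.14 and -7.25 in the order named. ENB1, a siderophore transporter gene in the same run, was called lower (adjusted p = 6.04e-05), with 16.3 and 2.54 in NBRC1950 and 828 and 807 in X2180. In NBRC1950 1 array of 2 exceeded background, so no fold is given. IMA2 and CSS3, which lie between these genes, have no value here. On the centromere side, ZPS1 (-0.95), FRE7 (-2.03) and GRE2 (-1.50) were lower and above background on all arrays, and the next genes, DCP1 (-0.16), SPT20 (-0.03) and PEX11 (0.01), were not called. The order of these genes in NBRC1950 was not examined.

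YGP1, a secreted glycoprotein that is made when nutrients run low, was higher in NBRC1950. Its signal was 878 and 966 in NBRC1950, against 631 and 614 in X2180, so that the arrays did not overlap. The log2 difference was 0.56 ± 0.08 (SE; limma adjusted p = 0.00139).

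Among the 9 GPI wall mannoproteins, 2 were higher in NBRC1950, 3 lower and 4 not called. The share called was 55.6%, beside 47.2% of all tested genes. CWP1, which marks the birth scar, led the higher ones. Its signal was 7170 and 7541 in NBRC1950 and 3648 and 4265 in X2180, a difference of 0.90 ± 0.09 (SE; limma adjusted p = 0.000177), and the strains were well apart. SPI1, a wall protein of cells that stop growing, had 508 and 574 in NBRC1950 and 320 and 357 in X2180, a difference of 0.68 (adjusted p = 0.00192). TIP1, a cold-inducible relative of the TIR proteins, was lower at -0.55 (adjusted p = 0.000479), but stood at -0.01 and was not called when scaled to all probe sets. ECM33, needed for wall integrity at the bud, and SED1, an abundant wall protein of resting cells, were called lower at -0.31 and -0.19 (adjusted p = 0.0117 and 0.0461). These calls did not hold under every scaling: scaled to all probe sets the genes stood at 0.24 and 0.36. Both calls were also lost without NBRC1950 replicate 1 or replicate 2, but such a fit leaves 1 array in that strain. With 1 array left out the difference ranged from -0.37 to -0.25 for ECM33 and from -0.21 to -0.17 for SED1.

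The other 4 GPI proteins were not called. CCW14, a protein of the inner wall layer, had 6669 and 6976 in NBRC1950 and 6739 and 6883 in X2180, and the arrays overlapped. Its difference was 0.002 with a 95% interval of -0.15 to 0.15. CWP2 was at -0.07 (interval -0.23 to 0.09) and CCW12, one of the most abundant wall proteins, at -0.13 (-0.33 to 0.08). PST1, the paralogue of ECM33, was at -0.26 and just missed the threshold (adjusted p = 0.0583). Without X2180 replicate 1 CCW12 was called lower (-0.23, adjusted p = 0.0491), and without NBRC1950 replicate 2 PST1 was (-0.36, adjusted p = 0.0318). Scaled to all probe sets, the 4 genes stood at 0.55, 0.48, 0.42 and 0.29 in the order named, close to or below the median gene at 0.50.

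CWP1 and CWP2 are neighbours on chromosome XI. A ratio of signals within one array does not depend on a scaling factor, so it was followed for the 5 pairs of members that are direct neighbours. The log2 ratio of CWP1 to CWP2 was higher in NBRC1950 by 0.97, with gaps of 0.09 between the NBRC1950 arrays and 0.31 between the X2180 arrays. That of PIR1 to PIR3 on chromosome XI changed by -0.83 (gaps of 0.30 and 0.38), and that of TIR2 to TIR4 on chromosome XV by -0.74 (gaps of 0.53 and 0.05). On chromosome X, the ratio of CIS3 to HSP150 changed by -0.04 (gaps of 0.03 and 0.23) and that of DAN1 to DAN4 by -0.08 (gaps of 0.06 and 0.77). These ratios were not tested.

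The PIR proteins, which carry short internal repeats through which they are joined to beta-1,3-glucan, mostly were not called. PIR1 had 6510 and 6526 in NBRC1950 and 8803 and 8831 in X2180, a difference of -0.44 ± 0.06 (SE; limma adjusted p = 0.00116). It was the single member of the 4 that was called (25%, beside 47.2% of all tested genes), and scaling to all probe sets put it at 0.11. HSP150, a heat-inducible PIR protein, had 8662 and 9198 in NBRC1950 and 8813 and 9730 in X2180, with overlapping arrays and a difference of -0.05 (95% interval -0.23 to 0.13). CIS3 was at -0.10. PIR3 was at 0.40 with a wide interval of 0.01 to 0.78 (adjusted p = 0.0842), and was called higher without NBRC1950 replicate 1 (0.55, adjusted p = 0.043) and with 2 of the other scalings.

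The TIR, DAN and PAU genes, which are turned on when oxygen runs out and then replace part of the aerobic wall proteins, did not move as a group. Of the 10, 3 were higher, 3 lower and 4 not called, so that 60% were called, beside 47.2% of all tested genes. TIR3 had 2660 and 2533 in NBRC1950 and 1112 and 1035 in X2180, a difference of 1.27 ± 0.07 (SE; limma adjusted p = 1.36e-05), or 2.42-fold. TIR1 had 1350 and 1467 in NBRC1950 and 1516 and 1424 in X2180, with overlapping arrays and a difference of -0.06 (95% interval -0.24 to 0.12). TIR2 went the opposite way to TIR3, with 205 and 270 in NBRC1950, 476 and 442 in X2180 and a difference of -0.97 ± 0.14 (SE; adjusted p = 0.0014). TIR4 (-0.22), DAN4 (-0.25) and DAN1 (-0.33) were not called. DAN1 lay near background, with 21.1 and 18.8 in NBRC1950 and 37.0 and 16.9 in X2180, and without X2180 replicate 2 it was called lower (-0.89, adjusted p = 0.0408).

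PAU2 and PAU5, short proteins of the seripauperin family, were higher in NBRC1950. PAU2 had 303 and 375 in NBRC1950 and 141 and 81.2 in X2180, a difference of 1.65 ± 0.25 (SE; limma adjusted p = 0.00154), which ranged from 1.26 to 2.05 with 1 array left out. PAU5 had 208 and 218 in NBRC1950 and 89.8 and 108 in X2180, a difference of 1.11 (adjusted p = 0.000841), and a further probe set of the gene gave 1.38. PAU7 and PAU17 were lower. PAU7 had 76.3 and 54.0 in NBRC1950 and 143 and 135 in X2180, a difference of -1.11 ± 0.20 (SE; adjusted p = 0.00347). With 1 array left out it ranged from -1.36 to -0.87, and it missed the threshold without X2180 replicate 1, where 1 array of that strain remains. PAU17 was at -0.61 (adjusted p = 0.00176), while its other probe set was at -0.33 and not called (adjusted p = 0.0921), and scaled to all probe sets it stood at -0.07.

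PAU genes are near-copies of each other, and the probe sets that stand for PAU2 and PAU7 are marked by the array maker as shared between similar sequences. So are the further probe sets of PAU5 and PAU17. Signals of these genes may therefore come from several family members. Of the other PAU, DAN and PIR genes, 9 were bright enough to be tested, and 1 of them, PIR5, was called lower (-1.12) and 0 higher in limma. That is 11.1% called, beside 47.2% of all tested genes. At an unadjusted p under 0.05 the limma counts were 3 lower and 1 higher, and the methods' t-test gave 0 in either direction. With scaling to all probe sets 4 were higher and 1 lower, and without further scaling 1 and 1. The count of lower genes was 2 without NBRC1950 replicate 2 or X2180 replicate 1 and 3 without X2180 replicate 2, where 1 was also higher.

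**Figure D4:**
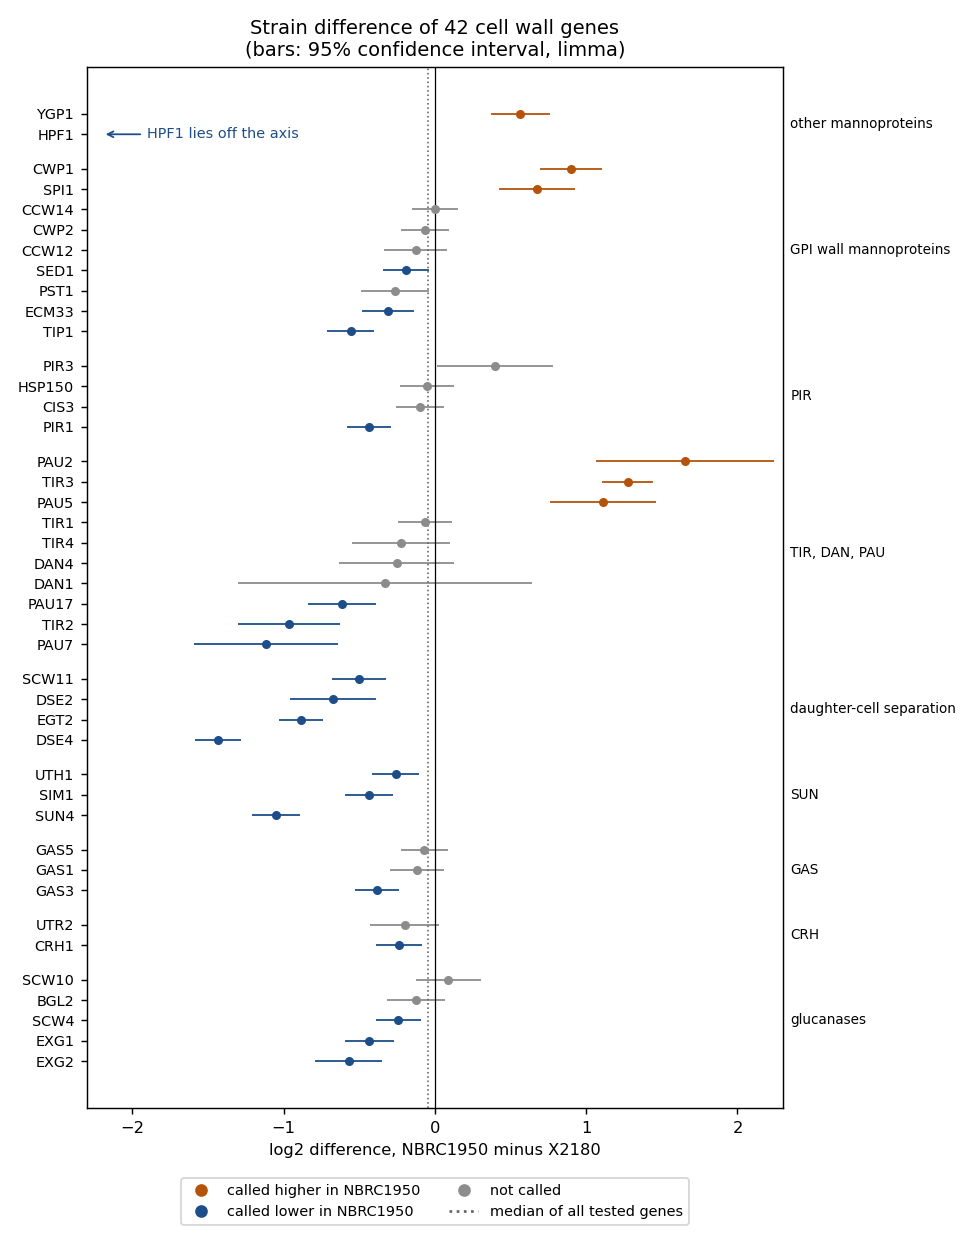
Log2 difference, NBRC1950 minus X2180, of the 42 wall genes with 95% confidence intervals from limma, grouped by role, with the dotted line at the median of all tested genes (-0.05). HPF1 lies off the axis at -8.58. All 4 genes of daughter-cell separation and all 3 SUN genes lie to the left of 0, while the TIR, DAN and PAU genes spread from -1.11 to 1.65.

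Other genes of low oxygen also went both ways. Of 14 tested, 8 were lower in NBRC1950 and 4 higher, beside 26.9% lower and 20.3% higher over all tested genes. Called in either direction were 85.7% of the list, against 47.2% of all tested genes. The list's median was -0.46, and its summed signal was 31511 and 32779 in NBRC1950 against 35063 and 36875 in X2180. Of these sums ERG11 gave 9274 and 9952 in NBRC1950 and 9256 and 10208 in X2180. OLE1 gave 8616 and 9031 in NBRC1950 and 5635 and 6181 in X2180. All 14 were above background on every array. FET4, a low-affinity iron transporter, was lower by -2.06, COX5B, the low-oxygen form of a cytochrome oxidase subunit, by -1.76 and YHK8 by -1.06, whereas PDR11, a sterol importer, was higher by 0.83, the cytochrome c isoform CYC7 by 0.73 and OLE1, the fatty acid desaturase, by 0.58. Scaled to all probe sets 5 of the list were lower and 6 higher, and without further scaling 5 and 4. PDR11 is a near neighbour of TIR3 on chromosome IX in the R64 order. AUS1, another sterol importer gene of the list, was lower by -0.98 (limma adjusted p = 0.00044). By its locus name AUS1 lies beside TIR2 on chromosome XV, and it was named after its value was seen. The part of oxygen supply in the culture in these differences was not tested.

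Genes of mother and daughter cell separation were lower in NBRC1950, 2 of them under every scaling. All 4 were called, beside 47.2% of all tested genes, and none overlapped between strains, which held for 75.7% of all genes. DSE4, the endo-beta-1,3-glucanase that opens the septum from the daughter side, had 1275 and 1328 in NBRC1950 and 3476 and 3566 in X2180. The difference was -1.44 ± 0.06 (SE; limma adjusted p = 4.32e-06), or 2.71-fold lower. EGT2, also needed to degrade the septum, had 2290 and 2268 in NBRC1950 and 4247 and 4172 in X2180, a difference of -0.89 ± 0.06 (SE; adjusted p = 3.51e-05). These 2 genes were lower under all 4 scalings and with any array left out.

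DSE2 and SCW11, a daughter-specific wall protein and a glucanase-like protein, were lower by smaller amounts. DSE2 differed by -0.67 (adjusted p = 0.00337) and stood at -0.13, not called, when scaled to all probe sets. SCW11 had 2927 and 2977 in NBRC1950 and 3924 and 4453 in X2180, a difference of -0.50 (adjusted p = 0.00164), but scaling to all probe sets put it at 0.0439. Outside the 42 genes, the chitinase gene CTS1, whose product dissolves the chitin of the septum, was also lower, with 2791 and 2353 in NBRC1950 and 6796 and 7068 in X2180 (-1.44, limma adjusted p = 2.12e-05). With the S. cerevisiae median DSE3 was lower as well (-0.61). DSE1, another daughter-specific gene, was at 0.01 and not called. AMN1, an antagonist of the mitotic exit network that acts in daughter cells, was lower, with 1525 and 1489 in NBRC1950 and 2940 and 3098 in X2180, while the regulators SWI5 (0.06), CBK1 (0.13) and MOB2 (0.03) were not called. DSE1, DSE3, SWI5, CBK1 and MOB2 were named after their values were seen.

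DSE4 is the 12th protein-coding gene from the right end of chromosome XIV in the R64 order. Its neighbour towards the end, YNR068C, was lower by -1.45 and BSC5 by -0.97, whereas on the other side YNR066C (0.13) was not called and YNR065C (0.84) was higher.

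The 3 SUN proteins of the group, which act in septation and wall building, were all lower in NBRC1950 with the S. cerevisiae median, though not under every scaling. Over all tested genes 26.9% were called lower. SUN4 had 2152 and 1983 in NBRC1950 and 4322 and 4239 in X2180, a difference of -1.05 ± 0.07 (SE; limma adjusted p = 2.64e-05) that held under all 4 scalings. SIM1 differed by -0.44 (adjusted p = 0.00156) and scaling to all probe sets put it at 0.11. UTH1 had 7527 and 7652 in NBRC1950 and 8824 and 9361 in X2180, a difference of -0.26 (adjusted p = 0.0156). That call was lost without NBRC1950 replicate 1 or replicate 2, where 1 array of that strain remains. With 1 array left out the difference of UTH1 ranged from -0.30 to -0.22. Scaling to all probe sets put the gene at 0.29. NCA3, the remaining SUN gene, was higher by 1.63 (adjusted p = 0.00041), with 132 and 111 in NBRC1950 and 39.9 and 38.8 in X2180.

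The enzymes that extend and cross-link glucan had small differences. Called were 33.3% of the GAS and 50% of the CRH genes, beside 47.2% of all tested genes. Of the 3 GAS glucanosyltransferases, GAS3 was called lower, with 2774 and 2789 in NBRC1950, 3549 and 3705 in X2180 and a difference of -0.38 ± 0.06 (SE; limma adjusted p = 0.00218), or 0.16 when scaled to all probe sets. GAS5 had 5150 and 5343 in NBRC1950 and 5346 and 5660 in X2180, a difference of -0.07 (95% interval -0.22 to 0.09). GAS1, the main enzyme of the family, was at -0.12 (interval -0.30 to 0.06). With this scaling these intervals exclude changes as large as those of DSE4 or SUN4.

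The CRH enzymes, which join chitin to glucan, were at -0.24 and -0.20. CRH1 had 4810 and 4767 in NBRC1950 and 5784 and 5496 in X2180 and was called lower (limma adjusted p = 0.0193). The call was lost without NBRC1950 replicate 1 or replicate 2, where 1 array of that strain remains. With 1 array left out its difference ranged from -0.27 to -0.20, and it was 0.31 when scaled to all probe sets. UTR2 had 7647 and 7793 in NBRC1950 and 8025 and 9781 in X2180 and was not called (0.134), but was called lower without X2180 replicate 1 (-0.34, adjusted p = 0.0133).

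Of the 5 glucanases, 3 were called lower and 2 not called. The share called was 60%, beside 47.2% of all tested genes. EXG2, an anchored exo-beta-1,3-glucanase, had 1367 and 1238 in NBRC1950 and 2084 and 1787 in X2180, a difference of -0.57 ± 0.09 (SE; limma adjusted p = 0.00224). EXG1, the main secreted exo-beta-1,3-glucanase, differed by -0.43 (adjusted p = 0.00188). Scaled to all probe sets the pair stood at -0.02 and 0.11. SCW4, an endoglucanase-like protein, was called lower at -0.24 (adjusted p = 0.0161), which was lost without NBRC1950 replicate 1 (0.167) or replicate 2 (0.0983) and was 0.30 when scaled to all probe sets. SCW10, the paralogue of SCW4, had 6147 and 5676 in NBRC1950 and 5104 and 6036 in X2180, with overlapping arrays. Its difference was 0.09 (95% interval -0.13 to 0.31). BGL2, a major endoglucanase of the wall, was at -0.12 (interval -0.31 to 0.07).

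The wider wall machinery was read from lists of other genes, each described by its counts beside the 26.9% lower and 20.3% higher over all tested genes. Other wall proteins and remodelling enzymes were lower more often than higher in NBRC1950, with 13 lower, 2 higher and 7 not called of 22 and a median of -0.44. Scaled to all probe sets the counts were 7 lower and 9 higher. YPS6, a wall protease of the yapsin group, was lower by -3.83, with 23.7 and 34.8 in NBRC1950 and 413 and 403 in X2180, CTS1 by -1.44 and GAS2, a spore wall enzyme, by -1.24. NCA3 and the spore wall gene CRR1 (0.50) were the higher ones, and the count of higher genes was 1 without NBRC1950 replicate 2 or X2180 replicate 1.

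The list of glucan and chitin synthesis, which also holds glucosidases of the endoplasmic reticulum, went partly lower. Of its 25 genes, 9 were lower, 2 higher and 14 not called, with a median of -0.07. CWH41 (-1.18) and ROT2 (-0.81), glucosidases of the endoplasmic reticulum, and GNA1 (-0.76), an enzyme of the chitin precursor pathway, led the lower ones, and KNH1 (1.53) and the septum chitin synthase gene CHS2 (0.34) were the higher ones. With the S. cerevisiae median, FKS1, the main glucan synthase, named after its value was seen, was lower by -0.48 (limma adjusted p = 0.00215). The count of lower genes was 5 without NBRC1950 replicate 1 or 2 or X2180 replicate 2, and scaled to all probe sets 2 were lower and 18 higher. Without NBRC1950 replicate 2 or X2180 replicate 2, 1 gene was higher.

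With the S. cerevisiae median, mannosylation and GPI anchor genes were mostly called lower or not called. Of 33 mannosylation genes, 16 were lower and 4 higher, with a median of -0.23, or 1 lower and 22 higher when scaled to all probe sets and 2 and 3 without further scaling. MNT2, an O-glycan mannosyltransferase, was lower by -2.18, KTR5 by -0.76 and PMT3 by -0.64, while MNN4, a regulator of mannosyl phosphate transfer, was higher by 1.05, MNN1, the alpha-1,3-mannosyltransferase, by 0.67 and PMT2 by 0.39. Of 24 GPI anchor genes, 13 were lower and 0 higher in limma, with a median of -0.24, and the methods' t-test at its unadjusted threshold likewise gave 12 and 0. They were led by the transamidase subunits GPI16 (-0.56) and GAA1 (-0.53) and by GPI19 (-0.51). The GPI list had 8 lower genes without NBRC1950 replicate 1 and 7 without NBRC1950 replicate 2. The direction of its calls turned with the scaling, as did that of all tested genes. Scaled to all probe sets 15 were higher and 0 lower, beside 3972 and 326 of all tested genes. Without further scaling 0 were called in either direction (0 in limma also at an unadjusted p under 0.05).

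**Figure D5:**
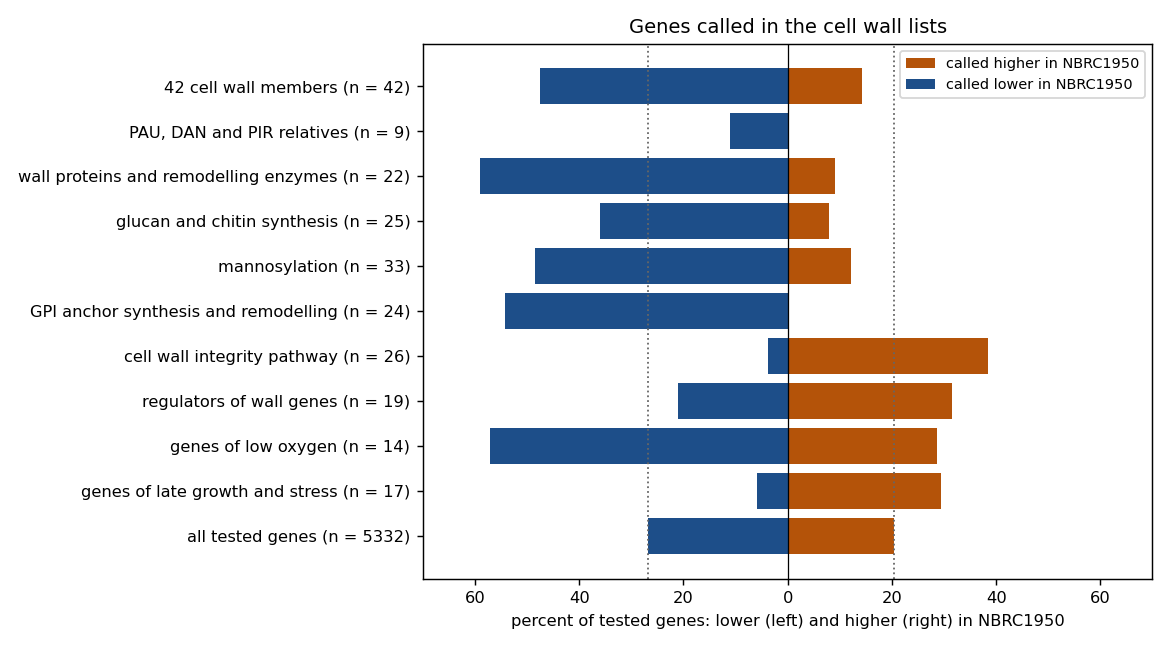
Percent of tested genes called lower (bars to the left) and higher (bars to the right) in NBRC1950 for the 42 wall genes, 9 lists of other genes and all 5332 tested genes, with dotted lines at the shares of all tested genes (26.9% and 20.3%). The wall integrity pathway has 10 of 26 genes to the right, while the wall proteins, mannosylation and GPI anchor lists extend to the left.

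The wall integrity pathway, which senses wall stress and signals through protein kinase C and a MAP kinase, was called mostly in the higher direction. Of 26 genes, 10 were higher in NBRC1950, 1 lower and 15 not called, with a median of 0.04, and without X2180 replicate 2 the count of higher genes was 6. The methods' t-test at its unadjusted threshold gave 4 higher. On scaling to all probe sets 25 were higher and 0 lower in limma, where 92.4% of all called genes were higher. PTP3, a phosphatase, was higher by 1.23, SWI6, a transcription cofactor, by 0.80 and BAG7 by 0.77. The single lower gene was RLM1 (-0.72), the transcription factor at the end of the pathway, with 686 and 643 in NBRC1950 and 1142 and 1046 in X2180, and it was not called lower when scaled to all probe sets. Without X2180 replicate 1 a further gene was called lower. The MAP kinase gene SLT2 was at -0.12 and not called, and PST1, a member known to respond to this pathway, was at -0.26.

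Regulators of wall genes went both ways, with 6 higher, 4 lower and 9 not called of 19, or 15 higher and 2 lower when scaled to all probe sets. SUT1 (1.08), ROX1 (0.99), the repressor of low-oxygen genes, and CYC8 (0.79), part of a general corepressor, led the higher ones. HAP1 (-1.06), the heme-dependent activator, AMN1 and MSN4 (-0.51), a stress activator, led the lower ones. UPC2, an activator of sterol and TIR and DAN genes, was at 0.22 and not called (limma adjusted p = 0.248). SLT2 and UPC2 were named after their values were seen.

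Genes of late growth and stress mostly were not called, though 13 were higher when scaled to all probe sets. Of 17 tested, 5 were higher, 1 lower and 11 not called, with a median of 0.06 and a summed signal of 9651 and 10088 in NBRC1950 against 9820 and 10041 in X2180. HSP104 alone gave 4424 and 4542 of these sums in NBRC1950 and 5045 and 4911 in X2180. Above background on all 4 arrays were 16 of the 17 genes. HSP26, a small heat shock protein, was higher by 2.85, with 649 and 652 in NBRC1950 and 79.5 and 102 in X2180. DDR2, below background on the X2180 arrays, was higher in NBRC1950 by at least 1.76-fold, PGM2 was higher by 0.88, and GSY2, the glycogen synthase, was lower by -1.16. Without NBRC1950 replicate 2, 3 were higher, and without X2180 replicate 2, 2 were lower. The members known from cells that stop growing, SPI1 and YGP1, were higher and SED1 was called lower, and the part of the culture state at harvest was not tested.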

How the data were processed

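Per the labels' protocols, poly(A) RNA was labelled and hybridised to 1-colour Affymetrix Yeast Genome 2.0 arrays, 2 for each of 2 strains. The authors deposited 1 linear intensity per probe set and array. GCOS is named in the submitters' processing notes, with no version, and the sources used here do not give its scaling or masking. The GeneSpring divisions that the series' design text names were not visible in the deposited intensity values.

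Of 10928 probe sets, the array's annotation, updated through the R64 gene table, gave 1 S. cerevisiae gene for 5498 (5449 genes). Background came from 5216 probe sets that name none and are no controls. Intensities were scaled to a common median of the S. cerevisiae probe sets, floored at 4.458, the median background, and converted to log2. Probe sets with a mean above 16.48, the 90th background percentile, were tested (5374 probe sets, 5332 genes) in limma 3.58.1 with R 4.3.3 (intensity trend, no covariates, NBRC1950 minus X2180, 2 residual and 5.397 prior degrees of freedom), with Benjamini-Hochberg adjustment over all tested probe sets. The probe set with the highest mean stood for a gene. All 42 members passed the filter, and 42 were above background on all 4 arrays. On simulated data with the same 5374 probe sets, 200 of them changed, 91.2% of differences of 1 and 100% of those of 2 on the log2 scale were recovered. In the data 2517 genes were called, so the setting differs, and no recovery is given for smaller differences. The precision is limited by the number of arrays.

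The members and lists were chosen with earlier results of these data known. Arrays are given for members called with a size of at least 1 and for the largest and smallest difference in each role; from other lists, up to 3 called genes in each direction are named. Alternatives were other scalings, floors, filters, probe set choices, the methods' t-test, a replicate block and leaving out each array. Probes mismatched to NBRC1950 were not masked. Figures were drawn with matplotlib 3.10.9.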

Additional observations from a re-analysis of the deposited data

How the results depend on the processing

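The members' counts, 6 higher and 20 lower, changed by over 1.5 times in 3 settings. With the median of all probe sets as the scale there were 23 higher and 6 lower (3972 and 326 over all genes, against 1085 and 1432). Without further scaling 6 were lower (390 over all genes). By the methods' t-test after Benjamini-Hochberg adjustment 1 was higher and 5 lower (220 and 315 over all genes), and at its unadjusted threshold 5 and 18 were. Of the called genes, 43.1% were higher with the S. cerevisiae median, 92.4% with all probe sets, 70.4% without scaling and 52.0% after quantile normalization. Scaled to all probe sets, 23 members with a negative difference turned positive: BGL2 (0.42), CCW12 (0.42), CIS3 (0.45), CRH1 (0.31), CWP2 (0.48), ECM33 (0.24), EXG1 (0.11), GAS1 (0.43), GAS3 (0.16), GAS5 (0.48), HSP150 (0.49), PIR1 (0.11), PST1 (0.29), SCW11 (0.0439), SCW4 (0.30), SED1 (0.36), SIM1 (0.11), TIR1 (0.48), UTH1 (0.29), UTR2 (0.35) and, not called under either scaling, DAN1 (0.22), DAN4 (0.29) and TIR4 (0.32). All 23 stayed below the median tested gene under that scaling. Without further scaling SED1, called lower with the S. cerevisiae median, was at 0.0178. With 1 array left out, 6 or 7 members were higher and 15 to 21 lower. Other floors and filters, no trend, averaged probe sets or only unshared ones gave 5 or 6 higher and 19 or 20 lower. Equal replicate numbers mark no stated pair, and the differences between arrays 1 and 2 of the strains correlated at 0.07 over probe sets. With the replicate block 7 members were higher and 20 lower (1161 and 1517 over all genes): PIR3 (adjusted p = 0.0203) and PST1 (0.00698) were gained and SED1 (0.0823) was lost. Apart from the scalings and the number of arrays tested, the cause of these changes was not tested.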
